A study of Mus musculus with 6 samples.

Results

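Apoptosis through mitochondria is set by the BCL2 family, whose members bind one another at the outer mitochondrial membrane. Anti-apoptotic proteins (BCL2, BCL-xL and MCL1) hold the effectors BAX and BAK in check, BH3-only proteins such as BIM and BID release that check, and freed effectors open the membrane so that cytochrome c reaches the cytosol. Caspases, proteases that cut after aspartate, then take the cell apart. Caspase-8 starts the cascade below death receptors and cuts BID, and caspase-6 is an effector caspase that cuts lamins. In the proximal tubule of the kidney this pathway is known for its part in tubular cell loss after ischaemia and toxins, and BECN1, an autophagy protein, is a partner of BCL2.

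The 9 genes described here were picked by symbol, with earlier results of these data known: Bcl2, Bcl2l1 (BCL-xL), Mcl1, Bax, Bak1, Bcl2l11 (BIM), Bid, Casp8 and Casp6. All 9 were found, each once, among the 24421 rows of the deposited table, and all 9 passed the filter on low values. Messenger RNA came from primary mouse proximal tubular epithelial cells grown in culture and exposed for 24 h to erastin2 at 20 µM. They made 3 libraries labelled Atg5F/F (floxed Atg5, taken as the control) and 3 labelled Atg5KO, of 1 batch. Erastin2 blocks cystine uptake and can cause ferroptosis, an iron-dependent death distinct from apoptosis. Every library had received the drug and there was no untreated group, so a difference between genotypes that exists without erastin2 cannot be told apart from one that needs it. The labels do not give the animals' age or strain, how the floxed allele was deleted, or whether replicates are separate cultures or animals, so each p-value weighs the genotypes against variation among these 6 libraries, which may be no more than technical. Transcripts were measured, and no protein level, caspase cleavage or cell death.

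Levels are FPKM, fragments scaled by gene length and by library size, a scale on which genes of different length can be set side by side. Read totals implied by the FPKM ran from 15528454 to 30004933 per library. The fewest reads behind any value of the 9 genes were 297 (Casp6, Atg5F/F replicate 2). The targeted gene did not check the labels: Atg5 averaged 8.55 ± 0.54 FPKM in F/F-labelled and 12.5 ± 0.94 FPKM in KO-labelled libraries (SD, n = 3). It was thus called higher, not lower, in KO-labelled libraries (log2 fold change 0.50, limma adjusted p = 5.5e-04), with no overlap of the groups. A value over the whole gene cannot show a missing exon. The groups are therefore named by their labels, and each direction rests on them. Of 12 proximal tubule markers, Ggt1, Lrp2 and Hnf4a were present, while Slc34a1, Slc5a2, Slc5a12, Cubn and Anpep were under 1 FPKM in every library, and 4 of the 7 tested were lower and 1 higher in KO-labelled libraries. The summed level of the 12 was 438.4 to 466.8 FPKM in F/F-labelled and 334.6 to 368.4 FPKM in KO-labelled libraries. Of the markers of other cells, the 6 of lymphocytes summed to at most 0.125 FPKM and the 8 of distal and collecting duct to at most 0.237 FPKM. Other lists were present in part. Among macrophage markers Csf1r (6.37 to 7.73 FPKM) and Cd68 (3.84 to 5.49 FPKM) were present and not called, while Ptprc, Adgre1, Lyz2 and C1qa were under 1 FPKM in every library, and the 6 summed to 10.96 to 13.28 FPKM in F/F-labelled and 10.3 to 12.55 FPKM in KO-labelled libraries. The endothelial list summed to 10.23 to 11.86 and 7.32 to 9.01 FPKM, with Flt1 present, Kdr lower in KO-labelled libraries (-0.63, limma adjusted p = 0.0013) and Pecam1, Cdh5, Tie1 and Emcn under 1 FPKM. The podocyte list summed to 25.66 to 29.74 and 24.86 to 28.59 FPKM, nearly all from Synpo, with Wt1 lower (-0.42, limma adjusted p = 0.035) and Nphs1 under 1 FPKM. Of 8 fibroblast and pericyte markers 7 were under 1 FPKM and Cspg4 was lower (-0.98, limma adjusted p = 4.2e-04), with sums of 1.68 to 2.68 and 0.6155 to 0.9496 FPKM. In such bulk samples fewer cells of a kind and less RNA per cell cannot be told apart. The part of these marker differences in the results below was not tested.

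Under erastin2, 5 of the 9 genes were higher in KO-labelled libraries: Mcl1 and Bcl2l1 on the anti-apoptotic side, the BH3-only gene Bcl2l11, and both caspase genes, Casp6 and Casp8. The increases were modest, from 1.11-fold for Bcl2l1 to 1.36-fold for Casp6. Bcl2, Bax, Bak1 and Bid did not pass the test. Calls are those of limma on log2(FPKM + 1) at an adjusted p under 0.05, fitted on 11559 genes. Of all genes tested, 39.2% were called, 21.3% as higher and 17.9% as lower, beside 55.6% of the 9. Since the 9 were chosen with earlier results known, their share is description and no test of the family. Over all genes tested, the higher ones made up 54.2% of calls, 48.1% with median-ratio scaling and 49.4% with the length trend removed. For the same 5 genes the lowest KO-labelled value was above the highest F/F-labelled one, and groups were apart in this way or the opposite one in 51.9% of all genes tested. The median log2 fold change of the 9 genes was 0.14, against 0.02 over all genes tested, and their median absolute change was 0.14 against 0.14. This background includes genes less abundant than any of the 9. With a filter of 5 FPKM, 2052 of 8996 genes tested were higher and 1837 lower, with 5 and 0 of the 9. None of the 9 was called lower by limma on log2(FPKM + 1), and none was lower at an unadjusted p under 0.05, while voom on the reads recovered from the FPKM called 1 lower, Bax. An exact two-sided permutation test of the 6 values gave each of the 5 higher genes p = 0.1, the smallest that 3 against 3 can give.

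**Figure D1:**
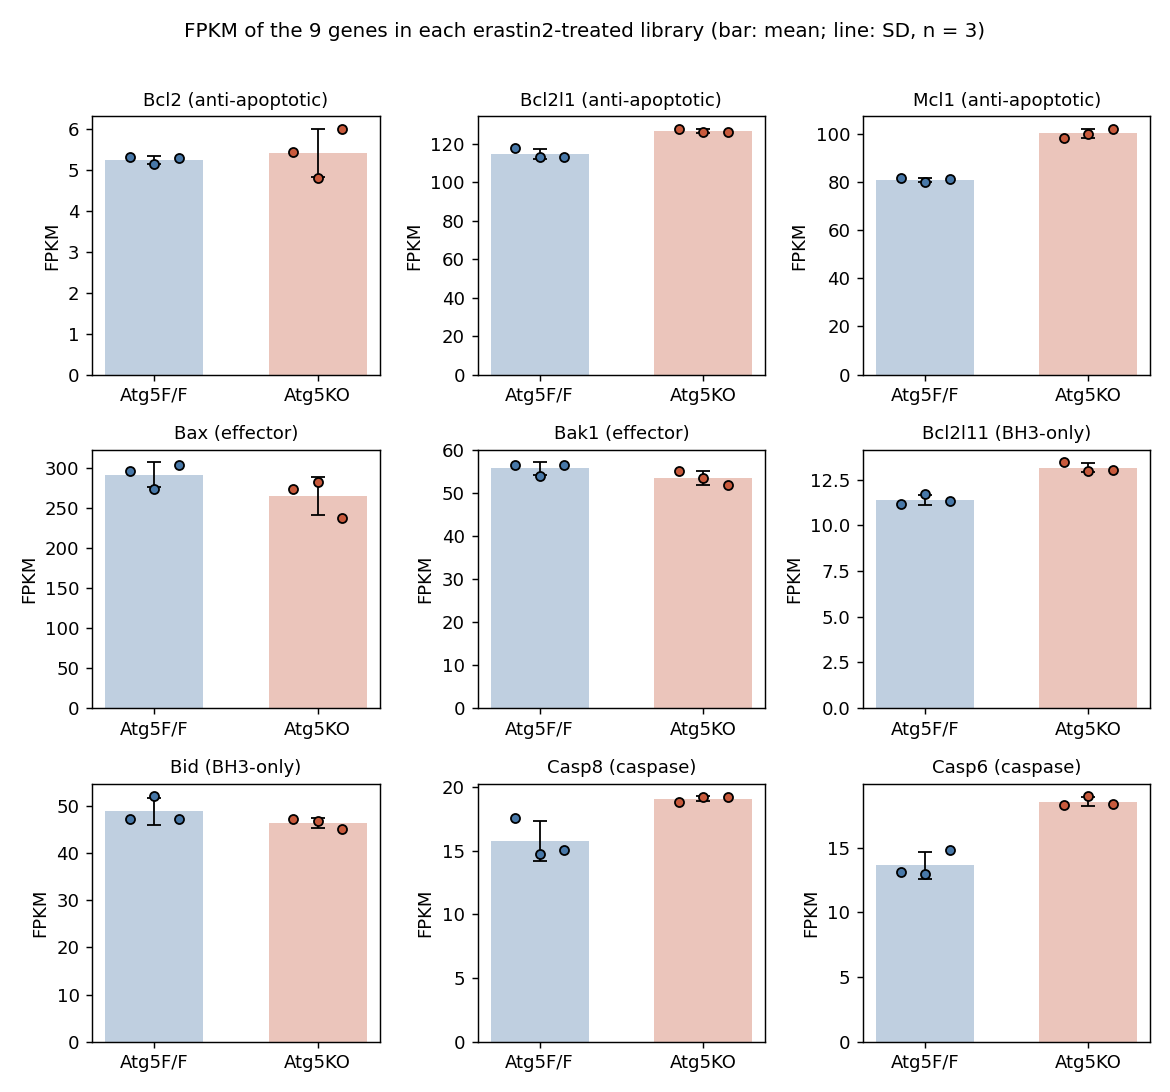
FPKM of the 9 genes in each library, 1 panel per gene; bars are group means, lines the SD (n = 3) and points the libraries. The KO-labelled points of Bcl2l1, Mcl1, Bcl2l11, Casp8 and Casp6 all lie above the F/F-labelled points, and those of Bcl2, Bax, Bak1 and Bid overlap with them.

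Mcl1 encodes a short-lived anti-apoptotic protein that binds BIM, NOXA and BAK (chromosome 3, 95658788 to 95663176 in GRCm38, plus strand). Its level was 81.5, 80.0 and 81.1 FPKM in F/F-labelled libraries, against 98.2, 100.02 and 102.1 FPKM in those labelled KO. The groups were tight and far apart for their spread. Group means of 80.9 ± 0.77 and 100.1 ± 1.9 FPKM (SD, n = 3) gave a log2 difference of 0.30 (SE 0.034), with limma adjusted p = 2.3e-04, and the call held in each of 16 alternatives, at 0.27 to 0.37.

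Bcl2l1 (chromosome 2, 152780668 to 152831728, minus strand) encodes BCL-xL, and was the most abundant of the 3 anti-apoptotic genes. It stood at 117.5, 113.1 and 112.8 FPKM in F/F-labelled and at 127.8, 126.1 and 126.0 FPKM in KO-labelled libraries. No KO-labelled value reached down to the highest F/F-labelled one, but the step was the smallest of the 5 called. On the log2 scale Bcl2l1 rose by 0.14 (SE 0.035, limma adjusted p = 0.012), and the call was lost without Atg5F/F replicate 3 (0.13, limma adjusted p = 0.063). A transcript level for the whole gene does not separate the long form from the pro-apoptotic short splice form of this gene.

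Bcl2 itself (chromosome 1, 106538178 to 106714274, minus strand) was the least abundant of the 9, at 5.31, 5.14 and 5.29 FPKM in F/F-labelled and 5.45, 4.80 and 5.99 FPKM in KO-labelled libraries. The KO-labelled values lay on both sides of the others. Bcl2 had a log2 fold change of 0.03 with a 95% interval from -0.14 to 0.20 (limma adjusted p = 0.74). It changed sign without Atg5KO replicate 3 (-0.03), so the gene has no direction here.

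Neither effector gene passed the test. Bax (chromosome 7, 45461697 to 45466898, minus strand), which encodes the cytosolic effector that moves to mitochondria, had the highest level of the 9. Its values were 296.6, 273.8 and 303.7 FPKM in F/F-labelled and 273.9, 282.2 and 237.5 FPKM in KO-labelled libraries. The groups overlapped, and Atg5KO replicate 3 was the lowest of the 6. The log2 fold change was -0.14 (95% interval -0.30 to 0.02, limma adjusted p = 0.14), and it was -0.07 without that library. The tests disagreed on Bax. The authors' deposited table called 5 of the 9 higher and 1 lower at an FDR under 0.05. Of all its 24421 rows 22% were called in either direction. Only 18296 of these rows were above 0, and all 9 genes passed a filter on low values, so the 22% is not a like background. The lower one of the 9 was Bax, with a log2 fold change of -0.17 and an FDR of 0.001. For Bax, voom on the recovered reads gave -0.14 (limma adjusted p = 0.039).

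Bax is also the shortest of the 9 genes, with a length of 869 bases implied by its FPKM. Short genes were lower in KO-labelled libraries across the table: across genes, which are not independent replicates, the deviation of a library from the gene means followed gene length with Spearman's rho at -0.23 to -0.16 in F/F-labelled and 0.04 to 0.34 in KO-labelled libraries. With each library's trend on length removed, the log2 fold change of Bax was -0.07 (limma adjusted p = 0.31), and with quantile normalization it was -0.05 (limma adjusted p = 0.53). Removing the trend also removes any difference between genotypes that runs with gene length. The part of gene length in the values of Bax was not tested.

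Bak1 (chromosome 17, 27019810 to 27029009, minus strand) encodes the effector that resides in the mitochondrial membrane. It stood at 56.7, 54.1 and 56.5 FPKM in F/F-labelled and at 55.2, 53.5 and 51.8 FPKM in KO-labelled libraries. The values overlapped. The log2 fold change was -0.06 (95% interval -0.15 to 0.03, limma adjusted p = 0.26), an interval that rests on the variation among these 6 libraries alone.

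The pair of BH3-only genes differed in what was seen. Bcl2l11 (chromosome 2, 128126038 to 128162547, plus strand) encodes BIM, which binds every anti-apoptotic member and can activate BAX. It stood at 11.2, 11.7 and 11.3 FPKM in F/F-labelled and at 13.4, 13.0 and 13.0 FPKM in KO-labelled libraries. All KO-labelled values lay above the others. Bcl2l11 rose by 0.19 on the log2 scale (SE 0.043, limma adjusted p = 0.0085). Its implied length of 7137 bases is second to that of Bcl2 (7738 bases), and with the trend on length removed its log2 fold change was 0.11 and the call was lost (limma adjusted p = 0.077).

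Bid (chromosome 6, 120891930 to 120916853, minus strand) encodes the BH3-only protein that caspase-8 activates by cleavage. It stood at 47.2, 52.1 and 47.1 FPKM in F/F-labelled and at 47.2, 46.8 and 45.2 FPKM in KO-labelled libraries. The groups overlapped, and Atg5F/F replicate 2 alone was higher than the other 5. The log2 fold change was -0.07 (95% interval -0.18 to 0.04, limma adjusted p = 0.26), and -0.02 without Atg5F/F replicate 2. The end of Bid overlaps Bcl2l13 on the opposite strand by 628 bases of exon, and the strand setting of the counting is not given in the sources used here. Bcl2l13 reached at most 17.2 FPKM. Bak1 likewise overlaps Ggnbp1 by 257 bases, and Ggnbp1 reached at most 3.04 FPKM. Bcl2 overlaps D630008O14Rik on the opposite strand by 497 bases, and Bax overlaps Gm45808 on its own strand by 140 bases. Neither D630008O14Rik nor Gm45808 was among the deposited rows, so their levels are not known here.

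Casp8 (chromosome 1, 58795374 to 58847503, plus strand) encodes the initiator caspase recruited to death receptors through FADD, which also restrains necroptosis by cutting RIPK1 and RIPK3. It stood at 17.5, 14.7 and 15.03 FPKM in F/F-labelled and at 18.8, 19.2 and 19.2 FPKM in KO-labelled libraries. The KO-labelled values were nearly equal, and Atg5F/F replicate 1 came closest to them. Casp8 rose by 0.27 on the log2 scale (SE 0.063, limma adjusted p = 0.011). Leaving out Atg5F/F replicate 1 gave 0.34, leaving out replicate 2 of that group gave 0.22, and the gene was called in each of 16 alternatives at an adjusted p under 0.05, though not at a threshold of 0.01.

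Casp6 (chromosome 3, 129901425 to 129914103, plus strand) showed the largest change of the 9. It stood at 13.2, 13.0 and 14.9 FPKM in F/F-labelled and at 18.4, 19.0 and 18.4 FPKM in KO-labelled libraries. The lowest KO-labelled value was well above the highest F/F-labelled one. Mean Casp6 rose from 13.7 ± 1.1 to 18.6 ± 0.38 FPKM (SD, n = 3), by 0.42 on the log2 scale (SE 0.056), with limma adjusted p = 5.5e-04. The call held in each of 16 alternatives, at 0.39 to 0.48.

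**Figure D2:**
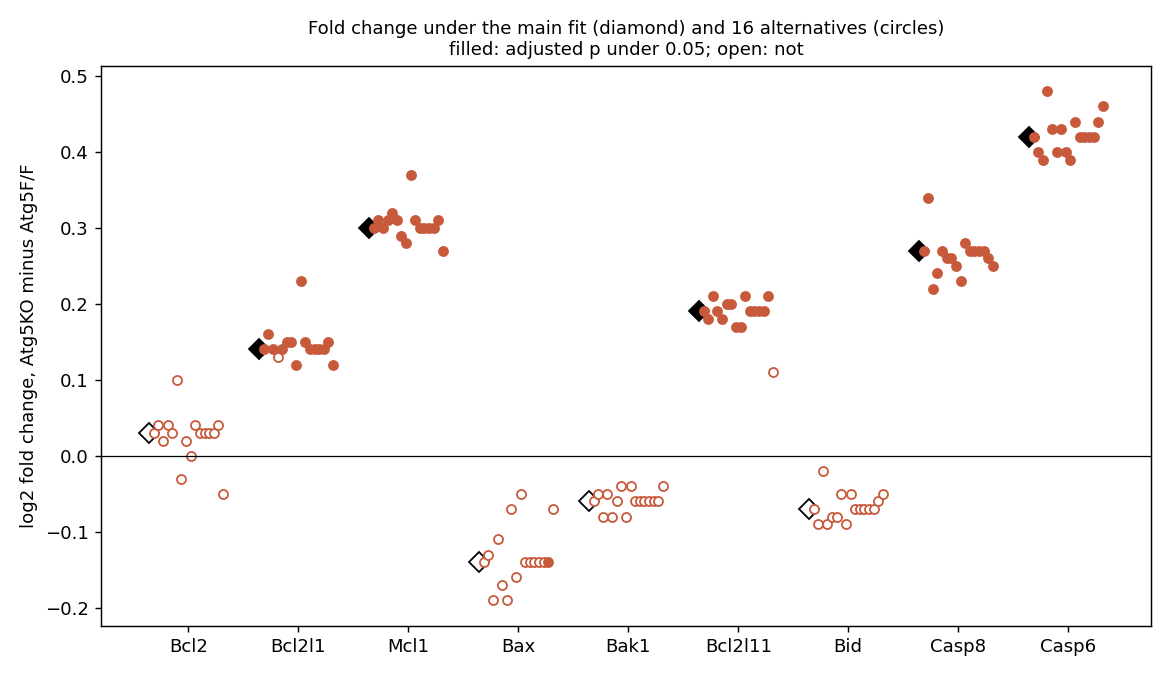
Log2 fold change of the 9 genes (y axis, Atg5KO minus Atg5F/F) under the main analysis (diamonds) and 16 alternatives (circles), filled where the adjusted p was under 0.05. Mcl1, Casp8 and Casp6 are filled throughout, Bcl2l1 and Bcl2l11 have 1 open circle each, and Bax has 1 filled circle.

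The order of levels was the same in both groups: Bax, Bcl2l1, Mcl1, Bak1, Bid, Casp8, Casp6, Bcl2l11 and Bcl2. The mean of Bax was 55.5 times that of Bcl2 in F/F-labelled and 48.8 times in KO-labelled libraries. Neighbours in this order did not overlap, except that Casp8 and Casp6 did in both groups, at 15.8 ± 1.5 against 13.7 ± 1.1 FPKM and 19.1 ± 0.22 against 18.6 ± 0.38 FPKM. So effector transcripts, through Bax, outnumbered anti-apoptotic ones per length, and BIM was among the scarcest.

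The summed FPKM of Bcl2, Bcl2l1 and Mcl1 was 204.2, 198.2 and 199.2 in libraries labelled F/F, against 231.4, 230.9 and 234.1 in those labelled KO. The summed FPKM of Bax and Bak1 was 353.3, 328.0 and 360.2 against 329.1, 335.7 and 289.4. The ratio of the first sum to the second was 0.578 ± 0.026 in F/F-labelled and 0.733 ± 0.066 in KO-labelled libraries (SD, n = 3). All 3 KO-labelled ratios were higher, the numerator being apart between groups and the denominator overlapping. The difference of the means was 0.155, and it was 0.117 when Atg5KO replicate 3, where Bax was lowest, was left out. No test was made of this ratio, since its genes were chosen with results known. The second sum leaves out Bok, an effector relative of BAX that was higher in KO-labelled libraries (59.97 against 78.0 FPKM). The first leaves out the anti-apoptotic gene Bcl2l2, which was not called (25.5 against 26.9 FPKM). The ratio was not recomputed with these genes, nor with the length trend removed, where the log2 fold change of Bax was -0.07.

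**Figure D3:**
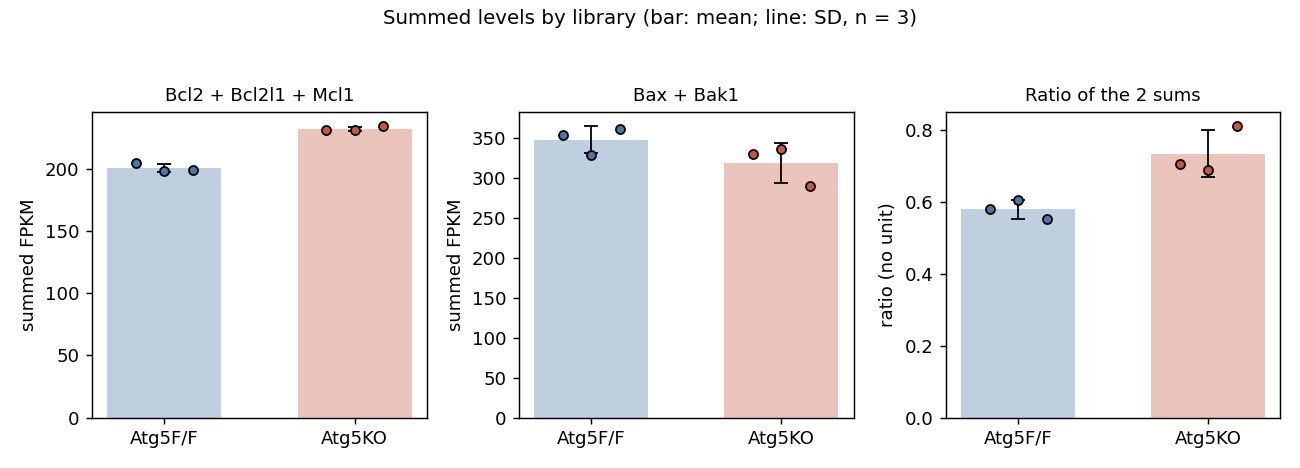
Summed FPKM of Bcl2, Bcl2l1 and Mcl1 (left) and of Bax and Bak1 (middle), and their ratio (right), per library. Bars are means and lines the SD (n = 3). The left sums are 198.2 to 204.2 against 230.9 to 234.1, the middle sums overlap, and the ratios are 0.553 to 0.605 against 0.688 to 0.809.

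The list of further pathway genes held 66 symbols, of which Gsdme and Dfna5 name the same gene, found as Dfna5. It too was chosen with earlier results of these data known, so shares called in it and in its parts are description only. Beside the 9, 65 further genes of the pathway were thus in the table, and 52 were tested. Of these 19 were higher and 5 lower (46.2% called, beside 39.2% of all genes), with a median log2 fold change of 0.08. Among the other BH3-only genes 3 of 6 were higher and 3 were not called (50% called, beside the same 39.2%). The largest change was that of Pmaip1, which encodes NOXA, a selective antagonist of MCL1. It stood at 113.4, 87.0 and 100.7 FPKM in F/F-labelled and at 178.7, 158.8 and 169.7 FPKM in KO-labelled libraries. Its log2 fold change was 0.75 (SE 0.088, limma adjusted p = 2.7e-04), larger than the 0.30 of Mcl1. The ratio of Mcl1 to Pmaip1 FPKM, chosen after the values were seen, was 0.718, 0.919 and 0.806 in libraries labelled F/F. It was lower in all 3 labelled KO, at 0.5496, 0.630 and 0.601. Bbc3, which encodes PUMA, rose from 36.6 ± 0.92 to 46.4 ± 1.3 FPKM (0.33). Bmf rose by 0.24 from 1.69 FPKM, a call lost in 11 of 15 alternatives, among them the removal of any single library (limma adjusted p = 0.051 to 0.13) and the replicate block (limma adjusted p = 0.064).

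Among other multi-domain members, Bok, an effector relative of BAX, rose from 59.97 ± 1.7 to 78.0 ± 5.7 FPKM (0.37, limma adjusted p = 9.8e-04). It was above Bak1 in every library, with Bak1 at 55.8 FPKM in F/F-labelled and 53.5 FPKM in KO-labelled libraries. Whether its change differed from those of Bax and Bak1 was not tested. Bcl2l2, which encodes the anti-apoptotic BCL-w, stood at 25.5 ± 0.93 and 26.9 ± 0.35 FPKM and was not called (0.07, limma adjusted p = 0.18). Bcl2l10 and the Bcl2a1 genes were at or near 0.

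The other initiator caspase genes tested, Casp9 (-0.04, limma adjusted p = 0.51) and Casp2 (-0.02, limma adjusted p = 0.80) were not called, so that among initiator caspases tested Casp8 alone passed. Whether Casp8 differed from Casp9 or Casp2 in its change was not tested.

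Below the mitochondria, Apaf1, which assembles the apoptosome with cytochrome c, rose from 10.3 ± 0.48 to 13.5 ± 0.20 FPKM (0.36). Htra2, a mitochondrial protease that binds inhibitors of apoptosis once released, fell from 33.1 ± 0.62 to 23.8 ± 1.6 FPKM (-0.46, limma adjusted p = 2.0e-04). Of the 9 genes in this group 1 was higher, 2 lower and 6 not called (33.3% called, beside 39.2% of all genes tested). Cytochrome c (Cycs, 0.002) and Diablo (0.005) were among those not called. The second decrease, of the channel gene Vdac2 (-0.11, limma adjusted p = 0.036), was lost in 8 of 16 alternatives. These included the removal of any single library other than Atg5F/F replicate 2, at a limma adjusted p from 0.069 to 0.15.

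Genes that restrain caspases were higher in 3 of 5 tested (60% called, beside 39.2% of all genes tested). Xiap, whose protein binds and blocks caspases, rose from 12.0 ± 0.25 to 15.5 ± 0.45 FPKM (0.34), and Birc3, which encodes cIAP2, a ubiquitin ligase of RIPK1, from 4.48 ± 0.16 to 6.37 ± 0.16 FPKM (0.43). Cflar, which encodes c-FLIP, the caspase-8 lookalike that limits its activation, rose by 0.17 (limma adjusted p = 0.041). The Cflar call was lost in 9 of 16 alternatives: without Atg5F/F replicate 2 or 3 or Atg5KO replicate 1 or 3 the limma adjusted p was 0.10 to 0.12, and with the length trend removed the log2 fold change was 0.09.

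Around caspase-8, 5 of 13 death receptor genes were higher and 2 lower (53.8% called, beside 39.2% of all genes tested), with a median of 0.03. Fas, the receptor that recruits caspase-8 through FADD, was 2.50, 2.61 and 2.01 FPKM in F/F-labelled and 4.34, 5.18 and 4.43 FPKM in KO-labelled libraries (0.75, SE 0.093, limma adjusted p = 3.9e-04). Fasl, its ligand gene, was at or near 0. Pidd1, which activates caspase-2, rose by 0.45 (limma adjusted p = 5.3e-04), and Ripk1 by 0.29 (limma adjusted p = 0.0027). Ripk3, the kinase of necroptosis that caspase-8 keeps in check, fell from 4.98 ± 1.0 to 2.74 ± 0.33 FPKM (-0.67, limma adjusted p = 0.0040). Fadd (0.03) and Mlkl (-0.08), on either side of these in the pathway, were not called.

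**Figure D4:**
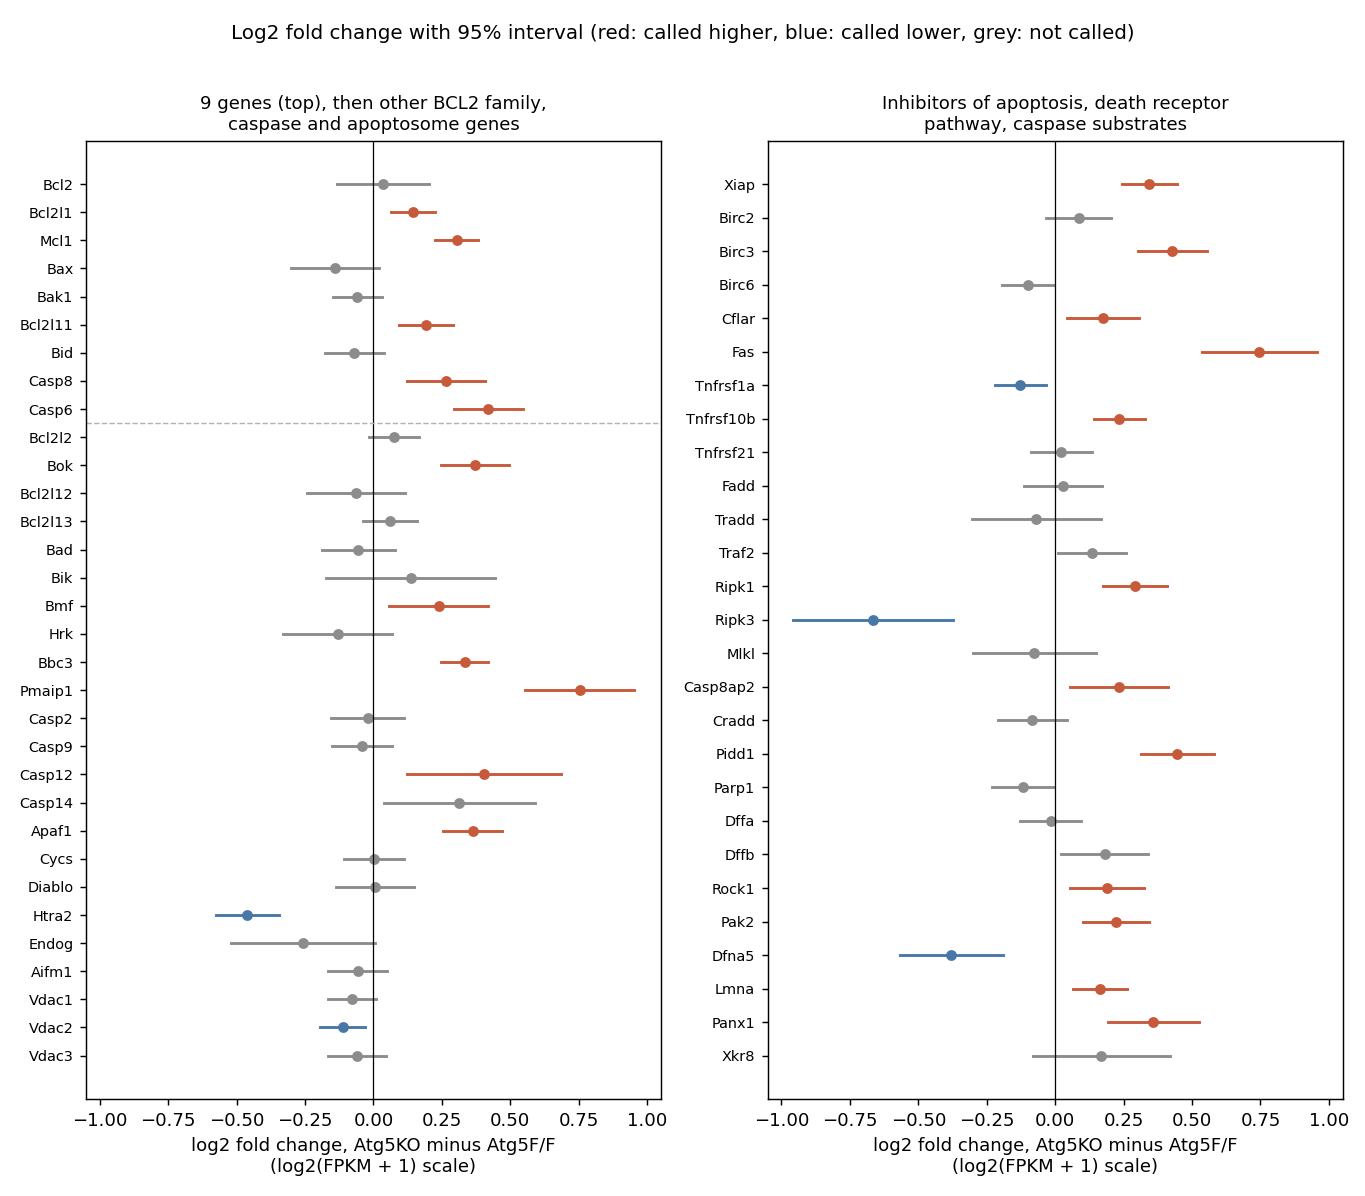
Log2 fold change (x axis, Atg5KO minus Atg5F/F) with its 95% interval for the 9 genes (left panel, above the dashed line) and the other pathway genes reported here; red was called higher, blue lower and grey not called. Pmaip1 (0.75) and Fas (0.75) lie farthest to the right and Ripk3 (-0.67) farthest to the left.

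Promoters of 3 of the 9 are shown because their genes carry the results: Mcl1 and Casp6, the most firmly higher, and Bax, the most abundant. Each is the 250 bases before a RefSeq transcript start in GRCm38.p6, read 5′ to 3′ on the gene's strand, with capitals at matches on either strand to the GC box GGGCGG, the E-box CACGTG or CCAAT. Mcl1 lies at chr3:95658471-95658720 (plus strand), Casp6 at chr3:129901165-129901414 (plus strand) and Bax at chr7:45466899-45467148 (minus strand).
Mcl1: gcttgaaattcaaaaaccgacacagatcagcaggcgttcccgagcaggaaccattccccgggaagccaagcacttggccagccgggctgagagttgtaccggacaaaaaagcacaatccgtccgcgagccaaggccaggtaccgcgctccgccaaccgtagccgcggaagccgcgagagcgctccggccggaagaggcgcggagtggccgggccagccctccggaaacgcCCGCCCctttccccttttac
Casp6: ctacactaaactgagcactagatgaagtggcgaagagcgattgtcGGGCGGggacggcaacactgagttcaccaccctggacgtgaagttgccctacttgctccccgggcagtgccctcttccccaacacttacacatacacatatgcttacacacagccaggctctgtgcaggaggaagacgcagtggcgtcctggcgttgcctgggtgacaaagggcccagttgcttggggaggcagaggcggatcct
Bax: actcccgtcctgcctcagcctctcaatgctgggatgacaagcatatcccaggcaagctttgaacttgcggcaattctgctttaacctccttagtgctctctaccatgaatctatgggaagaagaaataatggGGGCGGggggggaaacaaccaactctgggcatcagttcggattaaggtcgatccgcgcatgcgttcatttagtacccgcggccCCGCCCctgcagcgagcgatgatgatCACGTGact

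All 9 genes had an entry, 12 windows in all, since Bcl2l1 has 3 and Bcl2l11 has 2. Of these 12, 7 held a GC box, against 32.7% of all 32851 promoter windows of that length, and 3 held CCAAT, against 33.8%. Bax alone held the E-box, in 1 of the 12 windows, against 6.02% of all. None of the 12 held the AP-1 site TGANTCA (6.75% of all), and 1, of Bcl2l11, held the FOXO site GTAAACA (3.17% of all). GC content was 64.4%, 58.4% and 54.0% for Mcl1, Casp6 and Bax, against a median of 52.4%. A match describes letters only.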

How the data were processed

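The authors deposited 1 table with an FPKM value per gene and library, a log2 fold change, a p-value with its FDR, and a score that ranks rows. Per the submitters' processing notes, the tools were HISAT2 2.1.0, featureCounts 1.4.6, edgeR, Trimmomatic 0.35 and bcl2fastq, with builds GRCm38 and mm10. No annotation or strand setting is named in them. The 9 genes and the pathway and marker lists were chosen with earlier results of these data known.

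Genes reaching 1 FPKM in 3 or more of the 6 libraries were tested on log2(FPKM + 1) with limma 3.58.1 in R 4.3.3 (eBayes with a variance trend), Atg5KO minus Atg5F/F, with Benjamini-Hochberg adjustment over all of them. Fold changes on this scale understate those of low genes. FPKM came out as whole reads for 18296 of 18296 genes above 0, within 2.0e-04 reads, and gave totals and gene lengths. Both steps were tested on simulated data. Libraries of a group differed by more than sampling noise (chi-square per degree of freedom 3.0 to 6.1). The labels tie no replicate number to an animal or day. Named pathway genes are up to 4 called genes of each list with the largest change, or the 2 most abundant where none was called; Lmna, Cycs, Diablo, Fadd, Mlkl, Fasl and the genes given as near 0 were named after their values were seen. Some pathway genes counted in the totals are not reported here by name. Genes were placed with GENCODE vM21, and promoters came from RefSeq. Alternatives were leaving out each library, a replicate block, 2 scalings, a pseudocount of 0.1, no filter or 5 FPKM, robust or untrended eBayes, voom on recovered reads, removal of a loess trend on length (span 0.5) and a threshold of 0.01.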

Additional observations from a re-analysis of the deposited data

How the results depend on the processing

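Mcl1, Casp8 and Casp6 kept direction and call, and Bak1 and Bid direction and lack of one, in 16 of 16 alternatives at an adjusted p under 0.05. Bcl2 changed sign with the length trend removed (-0.05) and ran from -0.03 to 0.10 over the removal of single libraries. Bcl2l1 ran from 0.13 to 0.16 over those removals and lost its call in 1. Bcl2l11 lost its call with the length trend removed (0.11), and Bax was called lower with voom on recovered reads (-0.14), so that 1 of the 9 was then lower. At a threshold of 0.01, 3 of the 9 were higher (Mcl1, Casp6 and Bcl2l11), Casp8 and Bcl2l1 being no longer called, and 1449 and 1229 of all genes were higher and lower. Of the other pathway genes, 13 to 19 were higher and 3 to 5 lower without single libraries, against 19 and 5 in the main fit. Counts over all genes moved too, to 1781 to 2148 higher and 1431 to 1941 lower, against 2457 and 2073. With a filter of 5 FPKM 15 of the pathway genes were higher and 3 lower (2052 and 1837 of all genes). Without the variance trend these were 17 and 3 (2387 and 1951 of all genes). With the length trend removed 15 were higher and 6 lower (2189 and 2241 of all genes). The median of the other pathway genes was 0.05 to 0.09 without single libraries, 0.06 with median-ratio scaling or quantile normalization, 0.07 with no filter, 0.04 with a filter of 5 FPKM and 0.05 with the length trend removed. The cause of these shifts was not tested. With the replicate number as a block, 2531 genes were higher and 2137 lower, 5 and 0 of the 9, and 17 and 5 of the other pathway genes. Deviations of same-numbered libraries correlated at 0.16, 0.08 and -0.02, and not every library correlated best with its own number, so the numbers were not taken as pairs. The 3 libraries of each group limit the precision of every small difference here.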

Other observations

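Genes whose proteins caspases cut were measured as transcripts too. Of 9 tested, 4 were higher and 1 lower in KO-labelled libraries, with a median log2 fold change of 0.17. That is 55.6% called, beside 39.2% of all genes tested. Panx1, a channel opened by caspase cleavage, rose from 7.27 ± 0.76 to 9.58 ± 0.40 FPKM (0.36, limma adjusted p = 0.0049), and the kinase gene Pak2 from 26.3 ± 1.8 to 30.9 ± 1.1 FPKM (0.22, limma adjusted p = 0.011). Rock1 rose by 0.19 (limma adjusted p = 0.032), a call lost in 8 of 16 alternatives, and by 0.15, at a limma adjusted p of 0.095, without Atg5F/F replicate 2. Lmna, whose lamin is the known substrate of caspase-6, rose from 102.7 ± 4.5 to 115.1 ± 2.9 FPKM (0.16, limma adjusted p = 0.016) and was singled out after its values were seen. Dfna5, which encodes gasdermin E, a pore former opened by caspase cleavage, fell from 3.48 ± 0.14 to 2.46 ± 0.31 FPKM (-0.38, limma adjusted p = 0.0071), while Gsdmd was under 1 FPKM in every library.

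The inflammatory caspase genes Casp1 and Casp4 were under 1 FPKM in every library. Casp12 rose from 0.849 ± 0.11 to 1.46 ± 0.39 FPKM (0.40, limma adjusted p = 0.030), a call lost in 4 of 12 alternatives, among them the replicate block (limma adjusted p = 0.053) and the removal of Atg5F/F replicate 1 (limma adjusted p = 0.072) or 3 (limma adjusted p = 0.097).

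The 3 genes with a profile most like that of Casp6 over the 6 libraries were Rab2b, Tmem248 and Fam3c, each with a Pearson r of 0.996 to 0.997 on log2(FPKM + 1). The 6 points share 2 groups and their libraries, and 431 genes reached an r over 0.95.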
